A study of Mus musculus with 12 samples.

Results

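Matrix-bound nanovesicles (MBV), lipid-bound vesicles taken from the extracellular matrix of porcine urinary bladder, were compared to PBS in mouse retinas 2 days after optic nerve crush (ONC). The comparison used 6 of the 12 samples of the series, the 3 whose labels give MBV as the treatment and the 3 whose labels give PBS, and 15162 of the 25655 genes of the count tables, those with at least 10 counts in at least 3 of these 6 libraries. All samples came from mice labelled as C57BL/6 (C57BL/6J in the study's methods) and 8 to 10 weeks old, whose left optic nerve was crushed behind the eye and whose eye then received an intravitreal injection. The crush and an injection were therefore common to MBV and PBS retinas, and no uninjured or uninjected retina was part of the comparison. The other 2 groups of 3 samples received fluvastatin, a statin that blocks HMG-CoA reductase, or fluvastatin together with MBV. Total RNA of the whole retina was sequenced, and no label says whether a sample is 1 animal or a pool, so that p-values measure the spread between these samples, which may be technical. The question behind the comparison is which retinal genes differ when MBV are put into the vitreous after the injury.

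Crushing the optic nerve cuts the axons of retinal ganglion cells, the neurons that carry the output of the retina to the brain, and sets off an injury program in their cell bodies within days. Müller glia, which span the retina and support its neurons, react to such an injury by raising intermediate filament and cytokine genes while genes of their resting state decline, and microglia and blood-borne phagocytes can join. MBV are nanometre-sized vesicles embedded in the collagen network of tissues and are known for acting on immune cells and on the assembly of matrix. A drop placed into the vitreous lies between the lens, the ciliary body and the inner face of the retina, so lens, pigment and ciliary genes were followed beside those of the retina. In bulk RNA, fewer cells of a type and less RNA per cell cannot be told apart.

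The libraries held 21349516 to 30992040 counts on genes. Sag, the arrestin that marks the rods of the retina, was high in every one, at 2273, 1833 and 2333 CPM (counts scaled to a common library size) in MBV replicates 1 to 3 and 2957, 3086 and 3032 CPM in PBS replicates 1 to 3. MBV replicate 3 stood apart within its group. It differed at least 2-fold from the mean log2 CPM of the other 2 MBV libraries in 235 genes. The same count was 62 for MBV replicate 1, 121 for MBV replicate 2 and 23 to 66 for the PBS libraries. Counts of called genes without MBV replicate 3 are therefore given for each gene list in which they differ. The labels number PBS and fluvastatin libraries 1 to 3 and MBV and combined libraries 4 to 6, in 2 series. No label names the series of a library. PBS and the combined treatment were taken to share one series, and MBV and fluvastatin the other. The numbers alone would also allow PBS and MBV in 1 series. With the series taken in this way, a difference between them and an effect of MBV cannot be told apart in MBV against PBS. Fluvastatin values are for that reason given beside many of the results, though not beside every gene or list. GC content also moved with the comparison, as described at the end, and its part in any single gene was not tested.

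At a false discovery rate (FDR, the Benjamini-Hochberg adjusted p of edgeR's quasi-likelihood test) under 0.05, 2436 genes (16.1%) were higher and 2659 genes (17.5%) were lower with MBV than with PBS. The counts given below for gene lists are to be read beside these shares. Most differences were small. Changes of at least 2-fold were found in 155 higher genes (1.02%) and 161 lower genes (1.06%), and the median log2 fold change of all tested genes was 0.0053. The CPM of the 3 MBV and the 3 PBS libraries did not overlap in 48.9% of all tested genes and in 5042 of the 5095 that passed the test. Without MBV replicate 3, 17.8% of genes were higher and 19.2% lower. Leaving out PBS replicate 1 instead took the number of called genes from 5095 to 2727. The edgeR statistics were inflated as a whole, by a factor of 7.07 at the median, and none of the genes passed once they were divided by it, with 2 at an unadjusted p under 0.05, so every call below is a difference between these 6 libraries. For genes that lost their call when 1 library was left out, with the replicate number as a block, with GC offsets or in DESeq2, those settings are named with the FDR. Between MBV and fluvastatin, which were taken to share a series of library numbers, 5 of 15065 genes (0.0332%) passed the test. In the same edgeR test 1868 were at an unadjusted p under 0.05, and 127 passed in DESeq2.

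**Figure D1:**
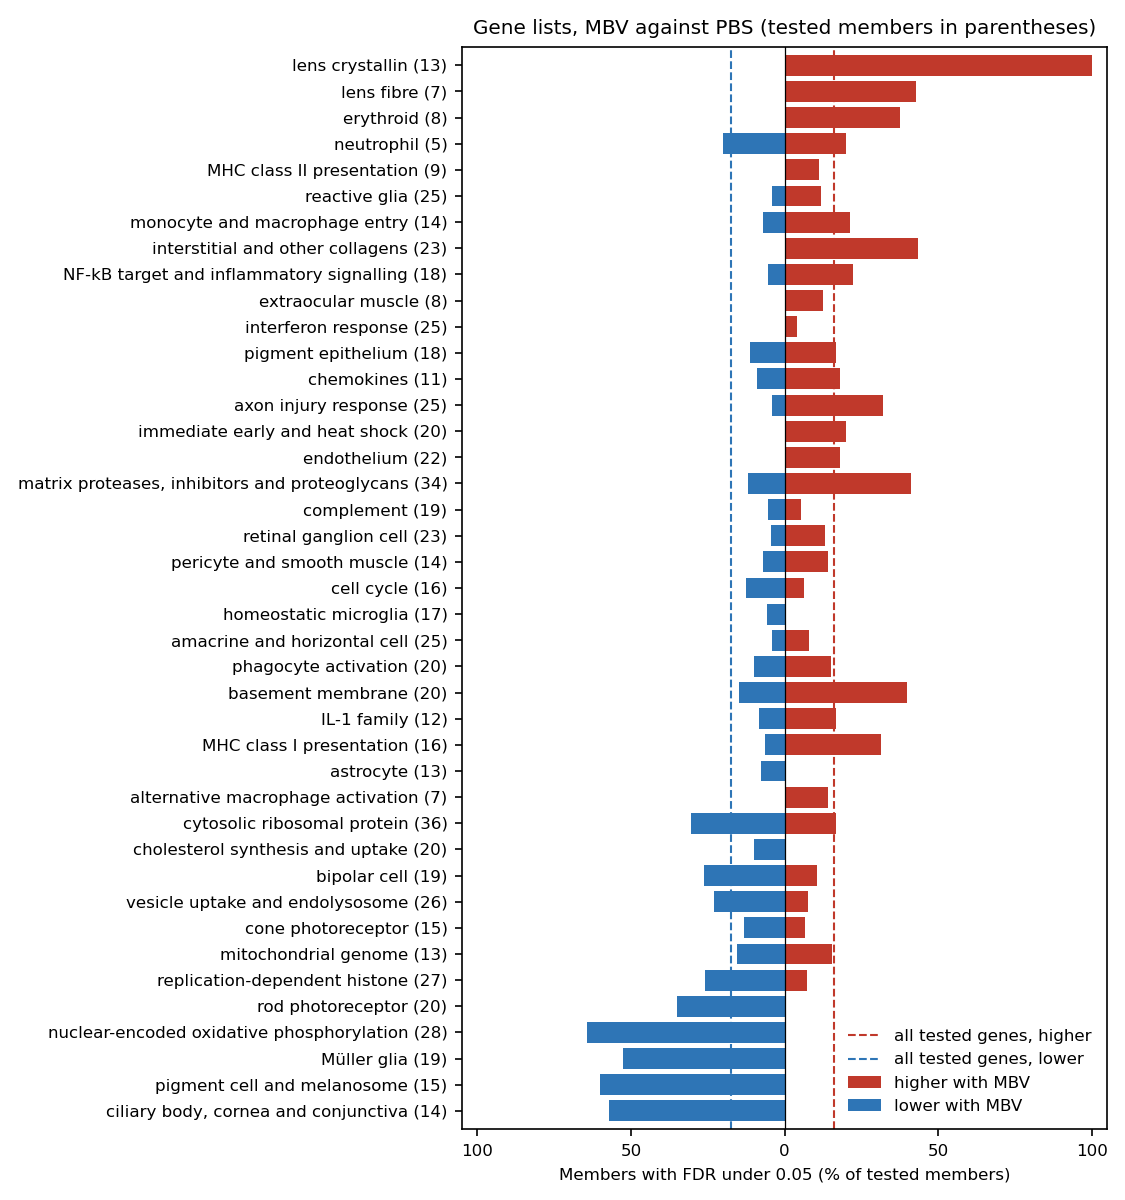
Share of the tested members of each gene list that passed the test (FDR under 0.05), lower with MBV to the left in blue and higher to the right in red, in percent, with the number of tested members in parentheses and lists ordered by median log2 fold change. Dashed lines mark the shares over all tested genes, 17.5% lower and 16.1% higher, and lens crystallins, with 13 of 13 members higher, stand at the top while ciliary, pigment and Müller glia lists stand at the bottom. Of the 13 crystallins, 12 passed the count filter only through the MBV libraries. In the ciliary list 7 of 14 genes, and in the pigment list 2 of 15, passed it only through the PBS libraries.

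Of the 45 gene lists, the largest median rise was in the lens crystallins, the soluble proteins that fill lens fibre cells. The 13 crystallin genes that could be tested of the 16 listed were all higher with MBV, with a median log2 fold change of 5.28, and all 13 were also called without MBV replicate 3, with the GC correction and with the replicate number as a block. The other 3 had too few counts, and 12 of the 13 passed the filter on low counts only because the MBV libraries were counted in, so that their number and median describe the group and do not test it. Without PBS replicate 2, 9 of the 13 were called. Cryaa, the chaperone alpha-A crystallin (chr17:31896781-31900707 in GRCm39), lay at 55.1, 35.2 and 26.95 CPM in MBV replicates 1 to 3 and at 2.27, 0.341 and 0.0379 CPM in PBS replicates 1 to 3. Every MBV library was above every PBS library, and the PBS libraries themselves spanned a wide range (means 39.1 ± 14.5 and 0.883 ± 1.21 CPM, SD, n = 3 each, log2 fold change 5.39 ± 0.61, FDR 0.00115). Cryba1, a beta crystallin of the lens core (chr11:77609441-77616109), lay at 29.2, 13.3 and 11.5 CPM with MBV and 0.681, 0.273 and 0.0757 CPM with PBS (log2 fold change 5.64 ± 0.58, FDR 0.00103). The highest crystallin levels were in MBV replicate 1 and the lowest in PBS replicate 3 for both genes.

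Other beta crystallins had the same order of groups. Cryba2 was at 6.25, 2.79 and 3.004 CPM with MBV and 0.357, 0.239 and 0.303 CPM with PBS (log2 fold change 3.72 ± 0.41, FDR 0.00114). Crybb2 was at 34.8, 13.8 and 13.2 CPM with MBV against 0.843, 0.613 and 0.0379 CPM with PBS (log2 fold change 5.31 ± 0.62, FDR 0.00129). Crybb3 was at 6.29, 2.61 and 2.66 CPM with MBV against 0.389, 0.375 and 0.341 CPM with PBS (log2 fold change 3.37 ± 0.43, FDR 0.00164). MBV and PBS libraries did not overlap in any of these 3 genes. Among the gamma crystallins, Crygs was at 13.2, 4.48 and 5.28 CPM with MBV and 0.324, 0.102 and 0 CPM with PBS (log2 fold change 5.64 ± 0.72, FDR 0.00160). Crygd was at 20.3, 1.23 and 3.22 CPM with MBV against 0.357, 0.102 and 0 CPM with PBS (log2 fold change 5.66 ± 1.31, FDR 0.0143). Crygd was not called without PBS replicate 2 (FDR 0.0564). Cryge was nearly silent with PBS, with 0, 1 and 0 counts in replicates 1 to 3, and lay at 12.4, 0.6404 and 1.12 CPM with MBV (FDR 0.0143). Cryge was not called without PBS replicate 1 or 2 (FDR up to 0.0723). Gamma crystallins are similar gene copies between which reads can be split, so the separate values of Crygd and Cryge are uncertain. Cryab, the small heat shock crystallin that glia also make, differed least, with 37.3, 30.1 and 28.3 CPM with MBV and 21.8, 18.7 and 22.9 CPM with PBS (log2 fold change 0.59 ± 0.12, FDR 0.00742).

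Crystallin levels were uneven in the fluvastatin libraries too. Cryaa was at 0.578, 7.51 and 0.255 CPM and Cryba1 at 0.578, 3.89 and 0.255 CPM in fluvastatin replicates 1 to 3, so that replicate 2 lay between the PBS and the MBV values and the other replicates lay within the PBS range. The 16 listed crystallins summed to 289.7, 113 and 108 CPM in MBV replicates 1 to 3 and 29.2, 21.6 and 24.1 CPM in PBS replicates 1 to 3, and to 24.6, 48.5 and 21.96 CPM in fluvastatin replicates 1 to 3. Within the series that MBV and fluvastatin were taken to share, the median log2 fold change of MBV against fluvastatin over the 13 crystallins was 3.46. None of the 13 passed the test, which also called only 0.0332% of all genes (Cryaa 3.76 ± 0.77, FDR 0.192).

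Genes of lens fibre cells outside the crystallins were fewer and less even. Of 7 tested, 3 were higher with MBV and none was lower, with a median log2 fold change of 1.69, and 3 of the 7 passed the filter only through the MBV libraries. There were 4 higher and 0 lower without MBV replicate 3. Mip, the water channel of lens fibres, was at 14.1, 1.51 and 1.89 CPM with MBV and 0.583, 0.613 and 0.454 CPM with PBS (log2 fold change 3.401 ± 0.92, FDR 0.0252). Mip was not called without PBS replicate 1, 2 or 3 (FDR up to 0.0848). Lgsn, a lens relative of glutamine synthetase, was at 10.97, 0.457 and 1.12 CPM with MBV and 0.454, 0.307 and 0.265 CPM with PBS (log2 fold change 3.602 ± 1.15, FDR 0.0447). Lgsn was not called without MBV replicate 1 or PBS replicate 1, 2 or 3 (FDR up to 0.124) or with GC offsets (0.0513). MBV replicate 1 lay far above the other MBV libraries in both genes, and those were much closer to the PBS values. The presence of lens tissue beside the retina in a sample was not tested.

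The promoters of 2 of these crystallins are shown because the list moved together. Maf-family proteins, which switch on crystallin genes in the developing lens, bind sites with the core TGCTGA. That core was searched on both strands of the 250 bases before each gene start in RefSeq promoters of GRCm38.p6, a build that differs from the GRCm39 positions given for genes. It was found in 8 of the 12 called crystallins with an entry and in 16.1% of all 32851 promoters. Cryge, Crygd, Crygb and Crybb2 had no match. Each called gene was counted with 1 promoter, while the share is over all promoter entries, so the counts are not of the same kind. The match, in capitals, lies 108 bases before the start of Cryaa (chr17:31677681-31677930, plus strand) and 57 bases before that of Cryba1 (chr11:77725294-77725543, minus strand).
Cryaa: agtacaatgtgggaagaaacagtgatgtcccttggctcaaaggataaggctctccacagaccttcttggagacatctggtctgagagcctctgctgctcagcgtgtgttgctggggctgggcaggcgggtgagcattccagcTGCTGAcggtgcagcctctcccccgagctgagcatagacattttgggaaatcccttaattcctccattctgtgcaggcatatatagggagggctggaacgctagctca
Cryba1: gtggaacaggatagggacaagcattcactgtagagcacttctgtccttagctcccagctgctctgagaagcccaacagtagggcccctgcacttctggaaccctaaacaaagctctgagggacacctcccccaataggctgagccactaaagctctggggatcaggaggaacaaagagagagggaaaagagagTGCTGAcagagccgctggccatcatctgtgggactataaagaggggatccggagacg
A match of these letters is a description of the sequence, and no binding was measured.

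Pigment cell genes moved in the other direction. Of the 15 tested genes of melanin synthesis and melanosomes, 9 were lower with MBV and none was higher, with a median log2 fold change of -0.96. Because 2 of the 15 passed the filter only through the PBS libraries, this count is a description, and it was 7 with GC offsets and at its lowest when 1 library was left out. Pmel, the fibril protein of the melanosome (chr10:128540064-128556107), lay at 3.402, 2.52 and 4.72 CPM in MBV replicates 1 to 3 and at 20.7, 16.3 and 20.4 CPM in PBS replicates 1 to 3. All MBV libraries were far below all PBS libraries (means 3.55 ± 1.11 and 19.1 ± 2.46 CPM, SD, n = 3 each, log2 fold change -2.44 ± 0.19, FDR 0.000849). Pmel overlaps Cdk2 and Dgka, and the strand setting of the counting is not given in the sources used here. Tyr, tyrosinase, which catalyses the rate-limiting step of melanin synthesis (chr7:87073979-87142720), was at 1.72, 1.14 and 3.65 CPM with MBV and 9.82, 7.598 and 12.5 CPM with PBS (log2 fold change -2.205 ± 0.36, FDR 0.00376). Tyrp1, its relative in the same pathway (chr4:80752360-80769956), was at 3.29, 1.83 and 9.06 CPM with MBV and 23.5, 21.4 and 30.1 CPM with PBS (log2 fold change -2.41 ± 0.43, FDR 0.00514).

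MBV replicate 3 was the highest MBV library for Pmel, Tyr and Tyrp1 and still lay below every PBS library. Dct, the dopachrome tautomerase of melanocytes, was at 15.5, 17.5 and 22.02 CPM with MBV and 62.1, 44.3 and 73.7 CPM with PBS (log2 fold change -1.72 ± 0.19, FDR 0.00115). Mlana, a melanosome membrane protein, was at 0.183, 0.412 and 0.944 CPM with MBV against 4.02, 2.73 and 5.34 CPM with PBS (log2 fold change -3.00 ± 0.48, FDR 0.00339). Oca2, which sets melanosome pH, was at 0.914, 1.05 and 1.03 CPM with MBV against 1.94, 2.01 and 1.89 CPM with PBS (log2 fold change -0.98 ± 0.18, FDR 0.00627). All MBV libraries were below all PBS libraries in these 3 genes as well. The fluvastatin libraries were also low, at 5.33, 4.86 and 4.12 CPM for Pmel, 2.72, 2.84 and 3.31 CPM for Tyr and 21.2, 16.3 and 19.2 CPM for Dct, and the median log2 fold change of MBV against fluvastatin over the 15 genes was -0.07. Gpnmb, a pigment cell and phagocyte glycoprotein counted here with phagocyte genes, was at 18.4, 15.3 and 21.5 CPM with MBV and 51.3, 39.9 and 55.7 CPM with PBS (log2 fold change -1.42 ± 0.15, FDR 0.00105).

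**Figure D2:**
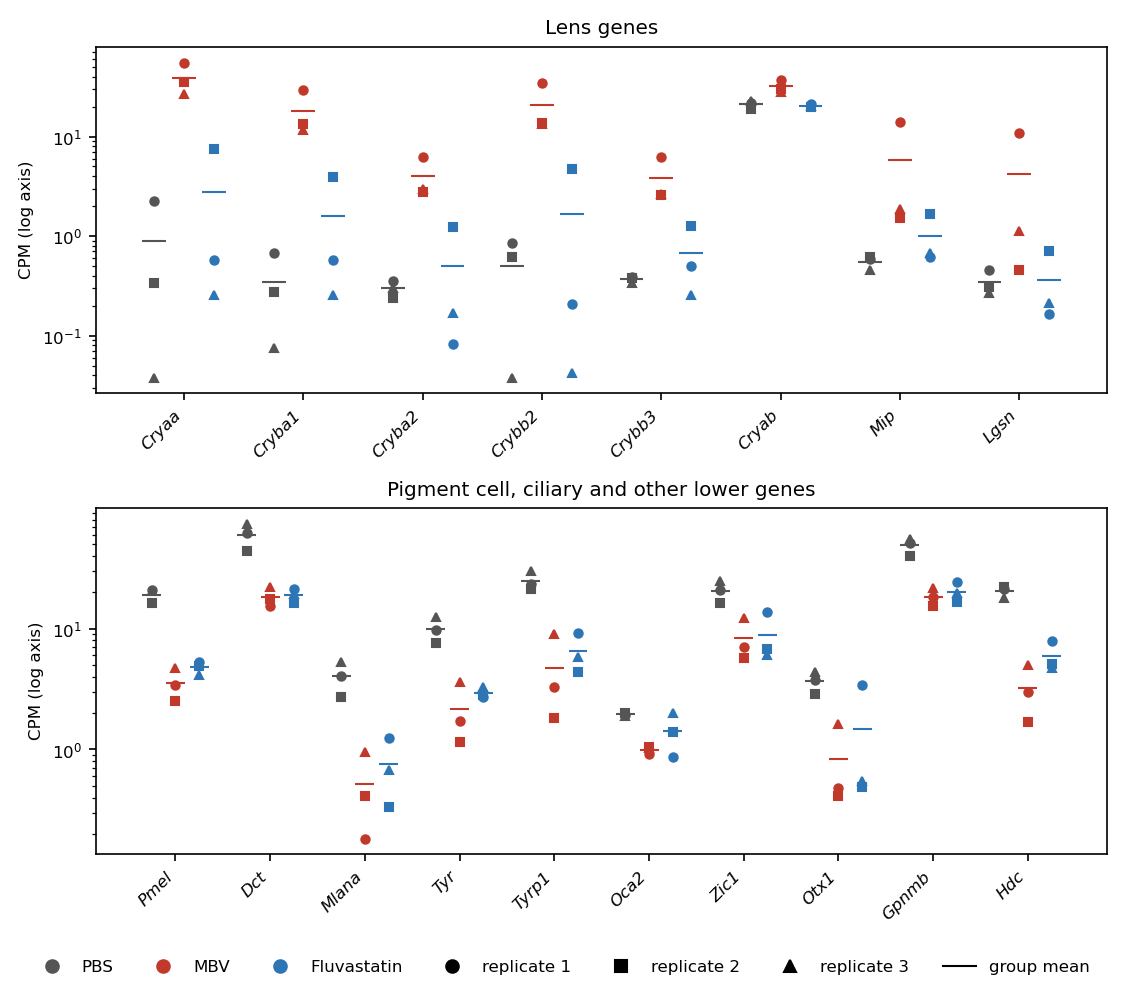
CPM (log axis) of lens genes (top) and of pigment cell, ciliary and other lower genes (bottom) in each PBS, MBV and fluvastatin library, with symbols for replicates and horizontal lines for group means. Lens genes are highest in MBV, with fluvastatin replicate 2 in between for Cryaa and Cryba1, and pigment genes are highest in PBS, with Pmel at 20.7, 16.3 and 20.4 CPM there.

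The promoters of Tyr and Tyrp1 are shown for the same reason as those of the crystallins. Mitf, the factor that drives melanin genes, binds an M-box whose core is CATGTG. That core was found in the same window of 5 of the 6 called pigment genes with an entry, all but Mlph, and in 12.3% of all promoters. As above, the share is over all promoter entries and the called genes have 1 promoter each. In capitals, it lies 21 bases before the start of Tyr (chr7:87493513-87493762, minus strand, GRCm38.p6) and 46 bases before that of Tyrp1 (chr4:80833963-80834212, plus strand).
Tyr: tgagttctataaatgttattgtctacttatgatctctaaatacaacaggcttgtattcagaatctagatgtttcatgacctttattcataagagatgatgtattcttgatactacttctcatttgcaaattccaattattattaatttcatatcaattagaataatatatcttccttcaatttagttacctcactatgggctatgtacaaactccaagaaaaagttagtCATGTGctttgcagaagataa
Tyrp1: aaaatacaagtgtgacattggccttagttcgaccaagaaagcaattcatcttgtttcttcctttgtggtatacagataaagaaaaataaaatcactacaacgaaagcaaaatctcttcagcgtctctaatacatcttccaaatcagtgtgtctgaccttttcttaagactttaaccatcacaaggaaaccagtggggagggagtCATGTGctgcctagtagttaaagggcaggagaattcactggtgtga
As with the lens genes, the match is of letters only.

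Genes of the ciliary body, cornea and conjunctiva were lower as well. Their list also holds Opn1sw, a cone opsin gene that is in the cone list too. Of 14 tested, 8 were lower with MBV and none was higher (median log2 fold change -1.40), and 8 were lower without MBV replicate 3. Because 7 of the 14 passed the filter only through the PBS libraries, this count too is a description, and it was 3 without MBV replicate 1 or PBS replicate 2. Zic1, a transcription factor of the ciliary margin, was at 7.06, 5.67 and 12.4 CPM with MBV and 20.8, 16.2 and 24.6 CPM with PBS (log2 fold change -1.302 ± 0.27, FDR 0.00883). Otx1, which is needed to form the ciliary epithelium, was at 0.475, 0.412 and 1.63 CPM with MBV and 3.73, 2.86 and 4.39 CPM with PBS (log2 fold change -2.14 ± 0.45, FDR 0.0101). The groups did not overlap in either gene, and MBV replicate 3 was the MBV library nearest to PBS in both. With the replicate number as a block, 4 of the 14 were lower. Aldh3a1, an aldehyde dehydrogenase abundant in cornea, was at 0.293, 0 and 0.215 CPM with MBV and 0.648, 1.43 and 1.02 CPM with PBS (log2 fold change -2.52 ± 0.62, FDR 0.0182). Aldh3a1 was not called without PBS replicate 2 (FDR 0.0611) or with the block (0.0539). Lum, the corneal proteoglycan lumican, was at 0.146, 0 and 0.215 CPM with MBV against 0.454, 0.545 and 0.757 CPM with PBS (log2 fold change -2.199 ± 0.60, FDR 0.0258), both close to the limit of detection in the MBV libraries. Lum was not called without MBV replicate 1 or PBS replicate 1, 2 or 3 (FDR up to 0.0713). In the fluvastatin libraries, Zic1 was at 13.7, 6.77 and 6.03 CPM and Otx1 at 3.43, 0.486 and 0.552 CPM.

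Genes of the pigment epithelium, the layer behind the photoreceptors, were split, with 3 of 18 higher and 2 lower, and 2 higher and 3 lower without MBV replicate 3. Mertk, the receptor with which this layer and macrophages engulf debris, was at 15.3, 16.4 and 15.8 CPM with MBV and 11.1, 11.1 and 11.9 CPM with PBS (log2 fold change 0.47 ± 0.07, FDR 0.00248). Ttr, a retinol carrier, was at 24.5, 40.3 and 51.4 CPM with MBV and 20.4, 24.4 and 17.9 CPM with PBS (log2 fold change 0.88 ± 0.25, FDR 0.0282). Ttr was not called without MBV replicate 2 or PBS replicate 1 or 3 (FDR up to 0.0919). Rrh, the photopigment peropsin, was at 9.58, 6.86 and 9.31 CPM with MBV against 13.3, 14.4 and 12.7 CPM with PBS (log2 fold change -0.66 ± 0.13, FDR 0.00747).

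Extracellular matrix genes, followed because MBV are taken from matrix, changed in both directions by gene. In the basement membrane list, 8 of 20 genes were higher and 3 lower (median log2 fold change 0.05), and 7 higher and 6 lower without MBV replicate 3. The type IV collagens, which form the network of these membranes, diverged by chain. Col4a1 (chr8:11248423-11362826) was at 74.3, 86.9 and 56.7 CPM with MBV and 36.1, 33.1 and 41.1 CPM with PBS (log2 fold change 0.97 ± 0.15, FDR 0.00289). Col4a2, its neighbour read from the opposite strand (chr8:11362805-11499287), was at 54.5, 61.6 and 54.8 CPM with MBV and 32.8, 28.96 and 33.6 CPM with PBS (log2 fold change 0.83 ± 0.07, FDR 0.000905). Every MBV library was above every PBS library for these 2 chains, which together build the widespread form of type IV collagen.

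Col4a3 and Col4a4, the chains of the specialised network known from kidney and eye membranes, were lower. Col4a3 (chr1:82564642-82699780) was at 7.86, 6.998 and 10.04 CPM with MBV and 43.5, 42.7 and 32.5 CPM with PBS, with no overlap between the groups (log2 fold change -2.26 ± 0.16, FDR 0.000755). Col4a4, its head-to-head neighbour (chr1:82426144-82564570), was at 10.2, 10.7 and 13.005 CPM with MBV and 24.2, 26.7 and 20.98 CPM with PBS (log2 fold change -1.099 ± 0.12, FDR 0.00112). Fluvastatin libraries held 11.5, 13.1 and 13.7 CPM of Col4a3 and 54.7, 58.1 and 57.4 CPM of Col4a1, both between the PBS and the MBV means. Among the other members, Lama4, a vascular laminin chain, was at 5.41, 5.58 and 5.92 CPM with MBV and 2.69, 2.86 and 2.99 CPM with PBS (log2 fold change 0.98 ± 0.12, FDR 0.00156). Agrn, agrin, a heparan sulphate proteoglycan of basement membranes, was at 134, 150.1 and 127 CPM with MBV and 90.4, 86.8 and 107 CPM with PBS (log2 fold change 0.53 ± 0.09, FDR 0.00406). With the GC correction, 5 of the 20 genes were higher and 5 lower.

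Of the interstitial and other collagens, 10 of 23 were higher and none was lower (median log2 fold change 0.36). Col6a1, a chain of the beaded filaments around cells (chr10:76544626-76562002), was at 56.99, 69.98 and 54.8 CPM with MBV and 27.9, 32.2 and 27.1 CPM with PBS (log2 fold change 1.05 ± 0.11, FDR 0.00102). Col3a1, a fibril collagen of vessel walls and scars, was at 2.89, 2.56 and 3.99 CPM with MBV and 1.199, 1.02 and 0.909 CPM with PBS (log2 fold change 1.57 ± 0.23, FDR 0.00260). Neither gene overlapped between the groups. Col20a1, a fibril-associated collagen, was at 26.3, 30.1 and 23.5 CPM with MBV against 14.7, 15.5 and 13.7 CPM with PBS (log2 fold change 0.85 ± 0.10, FDR 0.00119). Col11a2 was at 15.03, 20.3 and 15.2 CPM with MBV against 8.95, 11.2 and 8.45 CPM with PBS (log2 fold change 0.81 ± 0.15, FDR 0.00605). Col7a1, the anchoring fibril collagen, is outside this list and was chosen for its small FDR. It was at 20.6, 25.98 and 20.5 CPM with MBV against 10.6, 11.6 and 10.4 CPM with PBS (log2 fold change 1.03 ± 0.11, FDR 0.00105). Without MBV replicate 3, 11 of the 23 were higher and 6 lower. For MBV against fluvastatin, the median log2 fold change over the 23 genes was 0.09.

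Matrix proteases, their inhibitors and proteoglycans included 14 higher and 4 lower of 34 genes (median log2 fold change 0.21), and 11 higher and 2 lower with the GC correction. There were 17 higher and 8 lower without MBV replicate 3, and 8 were higher without PBS replicate 1. Mmp15, a membrane-type metalloproteinase (chr8:96078896-96101708), was at 22.5, 24.6 and 25.2 CPM with MBV and 13.3, 10.7 and 12.3 CPM with PBS (log2 fold change 0.98 ± 0.09, FDR 0.000957), and at 16.6, 16.2 and 15.8 CPM in the fluvastatin libraries. Adamts4, an aggrecanase that cuts proteoglycans, was at 4.94, 6.86 and 4.55 CPM with MBV and 2.11, 1.704 and 2.4996 CPM with PBS (log2 fold change 1.36 ± 0.21, FDR 0.00329). Ncan, the brain proteoglycan neurocan, was at 23.7, 25.4 and 23.99 CPM with MBV against 15.2, 13.9 and 15.4 CPM with PBS (log2 fold change 0.71 ± 0.06, FDR 0.000957). All MBV values of these 3 genes were above all PBS values. Tnc, the injury-linked matrix protein tenascin-C, was at 43.3, 48.8 and 43.3 CPM with MBV against 28.9, 27.2 and 33.9 CPM with PBS (log2 fold change 0.58 ± 0.09, FDR 0.00276). Mmp2 was at 11.5, 11.4 and 11.3 CPM with MBV against 7.099, 6.68 and 6.82 CPM with PBS (log2 fold change 0.73 ± 0.08, FDR 0.00105). Sparc, a collagen-binding matrix protein, was at 279, 262 and 325 CPM with MBV against 178, 177 and 194 CPM with PBS (log2 fold change 0.65 ± 0.08, FDR 0.00142).

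Fn1, fibronectin, the provisional matrix of wounds, was at 129, 147 and 129 CPM with MBV and 56.7, 55.8 and 80.97 CPM with PBS (log2 fold change 1.06 ± 0.14, FDR 0.00169). Fluvastatin replicates 1 to 3 held 86.03, 122 and 128 CPM of it. Timp3, an inhibitor of metalloproteinases, was at 101, 118 and 133 CPM with MBV and 158, 135 and 146 CPM with PBS (log2 fold change -0.32 ± 0.10, FDR 0.0371). Timp3 was not called without MBV replicate 1 or 2 or PBS replicate 1 or 3 (FDR up to 0.132), with the block (0.0668) or with GC offsets (0.0729).

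**Figure D3:**
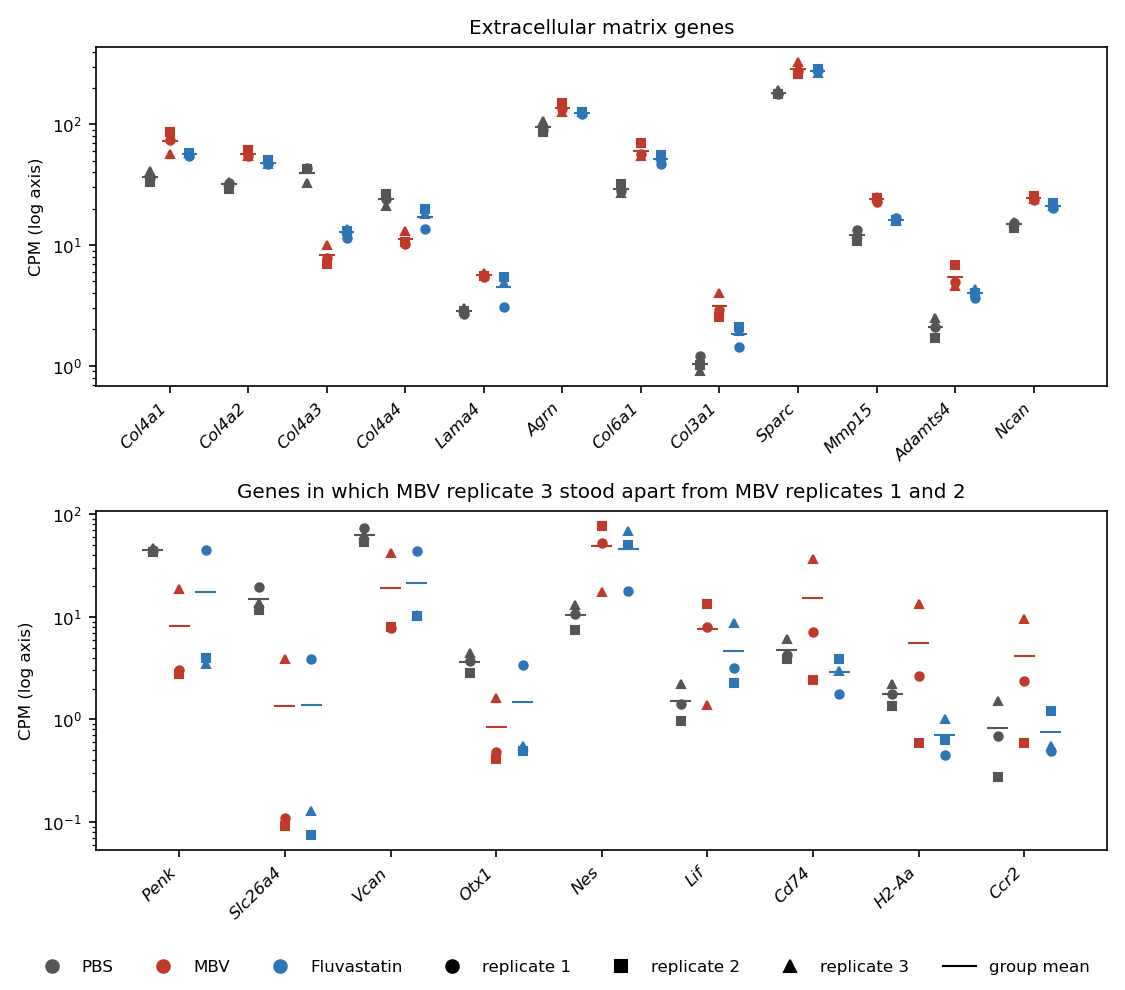
CPM (log axis) of extracellular matrix genes (top) and of genes in which MBV replicate 3, the red triangle, stood apart from the other MBV replicates (bottom), for each PBS, MBV and fluvastatin library, with horizontal lines for group means. Col4a1 and Col4a2 are higher and Col4a3 and Col4a4 lower with MBV, and Penk is at 2.999, 2.74 and 18.7 CPM in MBV replicates 1 to 3.

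Genes of Müller glia were called in the lower direction only. Of 19 genes that mark these cells, 10 were lower and none was higher (median log2 fold change -0.38), and without MBV replicate 3, 15 were lower and 2 higher. They include the intermediate filament gene Vim, which is also in the list of reactive glia. The lowest count was 7, without MBV replicate 1 or PBS replicate 1. For MBV against fluvastatin, the median log2 fold change over the 19 genes was -0.004. Hes1, a Notch target that keeps glial fate (chr16:29883202-29886614), was at 11.5, 12.8 and 12.7 CPM with MBV and 20.2, 19.4 and 21.3 CPM with PBS (log2 fold change -0.73 ± 0.07, FDR 0.000957). Rlbp1, the retinaldehyde-binding protein of Müller glia and pigment epithelium (chr7:79024618-79036796), was at 168, 170.4 and 166 CPM with MBV and 215, 223 and 214 CPM with PBS (log2 fold change -0.38 ± 0.04, FDR 0.000957). Both genes were tight within groups and did not overlap between them. Aqp4, the water channel of glial endfeet, was at 117, 85.3 and 126 CPM with MBV and 167, 167 and 161 CPM with PBS (log2 fold change -0.602 ± 0.12, FDR 0.00872). Dkk3, a secreted Wnt modulator, was at 544, 438 and 604 CPM with MBV against 772, 731 and 808 CPM with PBS (log2 fold change -0.55 ± 0.11, FDR 0.00683).

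Glul, glutamine synthetase, which clears glutamate in Müller glia, did not pass the test with all 6 libraries, at 1121, 599 and 1972 CPM with MBV and 2585, 2486 and 1909 CPM with PBS (FDR 0.0840), and the log2 fold change was -1.44, FDR 0.00249 without MBV replicate 3. That library reached the PBS range, while MBV replicates 1 and 2 lay below it. In fluvastatin, Glul was at 2001, 1059 and 821 CPM in replicates 1 to 3, with replicate 1 alone in the PBS range.

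Reactive glia genes were called more often when MBV replicate 3 was left out. With all 6 libraries 3 of 25 were higher and 1 was lower (median log2 fold change 0.55), and without it 13 were higher and 1 lower (median 0.62). The 25 genes summed to 1504, 1854 and 1049 CPM in MBV replicates 1 to 3. They summed to 889, 823 and 1452 CPM in PBS replicates 1 to 3, so PBS replicate 3 stood apart in this list too. For MBV against fluvastatin, the median log2 fold change over the 25 genes was 0.27. Nes, nestin, an intermediate filament that injured Müller glia raise (chr3:87878385-87887758), was at 52.9, 76.3 and 17.4 CPM in MBV replicates 1 to 3 and 10.7, 7.496 and 12.95 CPM in PBS replicates 1 to 3 (log2 fold change 2.23 ± 0.48, FDR 0.0108). MBV replicate 3 was the lowest of its group and still above PBS. Cryab, given above, was another. Mt1, a metal-binding stress protein, was at 55.2, 65.6 and 40.6 CPM with MBV and 31.6, 27.4 and 44.1 CPM with PBS, with MBV replicate 3 inside the PBS range (log2 fold change 0.64 ± 0.21, FDR 0.0455). Mt1 was not called without MBV replicate 1 or 2 or PBS replicate 1 or 2 (FDR up to 0.142), with the block (0.106), with GC offsets (0.0729) or in DESeq2 (0.0699). Emp1, an epithelial membrane protein, was the lower one, at 1.06, 1.23 and 2.62 CPM with MBV against 2.95, 3.92 and 3.33 CPM with PBS (log2 fold change -1.07 ± 0.33, FDR 0.0390). Emp1 was not called without MBV replicate 1 or 2 or PBS replicate 1, 2 or 3 (FDR up to 0.116) or with GC offsets (0.0598). Stat3, the transcription factor of glial reactivity, was at 185, 239.7 and 102 CPM with MBV and 87.2, 83.8 and 155 CPM with PBS, overlapping between the groups (FDR 0.145, and 0.96, FDR 0.0139 without MBV replicate 3). PBS replicate 3 was the highest PBS library for Stat3 and for Cd44, a hyaluronan receptor at 28.6, 21.5 and 46.5 CPM with PBS and 54.8, 64.2 and 33.8 CPM with MBV (FDR 0.129).

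Several genes split the MBV libraries in the same way, with replicates 1 and 2 together and replicate 3 nearer to PBS. Penk, the precursor of enkephalin peptides (chr4:4133531-4138819), was at 2.999, 2.74 and 18.7 CPM with MBV and 44.8, 43.3 and 47.2 CPM with PBS (log2 fold change -2.49 ± 0.58, FDR 0.0147, and -3.97, FDR 3.39e-07 without MBV replicate 3). Penk was not called without PBS replicate 1 (FDR 0.0503). Slc26a4, the anion exchanger pendrin (chr12:31569826-31609968), was at 0.1097, 0.0915 and 3.86 CPM with MBV and 19.6, 11.7 and 13.7 CPM with PBS (log2 fold change -3.51 ± 0.79, FDR 0.0127), where the 2 lowest MBV libraries held 3 and 2 counts. Slc26a4 was not called without PBS replicate 1 (FDR 0.0627) or in DESeq2 (0.0578). Vcan, the hyaluronan-binding proteoglycan versican (chr13:89803431-89890628), was at 7.83, 7.96 and 41.98 CPM with MBV and 72.8, 53.9 and 62.3 CPM with PBS (log2 fold change -1.73 ± 0.57, FDR 0.0487, and -3.00, FDR 1.95e-05 without that library). Vcan was not called without MBV replicate 1 or 2 or PBS replicate 1, 2 or 3 (FDR up to 0.135), with GC offsets (0.0674) or in DESeq2 (0.0859). In each, MBV replicate 3 lay several-fold above the other MBV libraries and below all PBS libraries.

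The fluvastatin libraries were split as well, but with replicate 1 nearest to PBS. Penk was at 45.2, 4.0005 and 3.44 CPM, Slc26a4 at 3.92, 0.0748 and 0.127 CPM, Vcan at 43.9, 10.1 and 10.4 CPM and Col18a1, the basement membrane collagen that yields endostatin, at 126, 34.4 and 32.96 CPM in fluvastatin replicates 1 to 3. Col18a1 was at 34.8, 38.5 and 101 CPM with MBV and 104.6, 87.2 and 113 CPM with PBS (FDR 0.122, and -1.48, FDR 0.000136 without MBV replicate 3). Lif, a cytokine that injured retina makes and that activates Stat3, was at 8.05, 13.4 and 1.37 CPM with MBV and 1.43, 0.954 and 2.197 CPM with PBS (log2 fold change 2.31 ± 0.70, FDR 0.0370), so that MBV replicate 3 lay within the PBS range. Lif was not called without MBV replicate 1 or 2 or PBS replicate 1, 2 or 3 (FDR up to 0.118) or with the block (0.107). What set replicate 3 apart was not tested.

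Rod genes were called in the lower direction only. Of 20 tested, 7 were lower (median log2 fold change -0.28), 17 without MBV replicate 3 and 3 with the replicate number as a block, and 1 without PBS replicate 1. For MBV against fluvastatin, the median log2 fold change over the 20 genes was -0.19. Sag, the rod arrestin that ends the light response, with the values given above, did not overlap between the groups (log2 fold change -0.504 ± 0.09, FDR 0.00584). Gnb1, the beta subunit of rod transducin, was at 4315, 3888 and 5437 CPM with MBV against 6715, 6723 and 6261 CPM with PBS (log2 fold change -0.54 ± 0.12, FDR 0.0126). Gnb1 was not called without MBV replicate 1 or PBS replicate 1 (FDR up to 0.0594). Nrl, the factor that fixes rod fate, was at 766, 676 and 977 CPM with MBV against 1055, 1097 and 1006 CPM with PBS (log2 fold change -0.39 ± 0.12, FDR 0.0390). Nrl was not called without MBV replicate 1 or 2 or PBS replicate 1, 2 or 3 (FDR up to 0.123) or with the block (0.0637). MBV libraries were below PBS libraries without overlap in both of these. Cone genes were 1 higher and 2 lower of 15, and 2 higher and 4 lower without MBV replicate 3. Cnga3, the cone channel subunit, was the higher one, at 18.6, 19.8 and 23.7 CPM with MBV and 15.9, 16.05 and 15.5 CPM with PBS (log2 fold change 0.38 ± 0.09, FDR 0.0174). Cnga3 was not called without PBS replicate 1 (FDR 0.0616). Gnat2, the cone transducin, was at 86.7, 75.7 and 97.4 CPM with MBV against 107, 116 and 97.8 CPM with PBS (log2 fold change -0.31 ± 0.10, FDR 0.0393). Gnat2 was not called without MBV replicate 1 or 2 or PBS replicate 1 or 2 (FDR up to 0.124), with the block (0.0904) or with GC offsets (0.0746).

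Bipolar cell genes, of the neurons that link photoreceptors to ganglion cells, were 2 higher and 5 lower of 19 (median log2 fold change -0.07), and 5 higher and 4 lower without MBV replicate 3. Isl1, a transcription factor of ON bipolar cells, was at 49.3, 50.6 and 48.4 CPM with MBV and 64.7, 63.2 and 56.5 CPM with PBS (log2 fold change -0.32 ± 0.06, FDR 0.00586). Amacrine and horizontal cell genes were 2 higher and 1 lower of 25, the lower one being Penk, and 4 higher and 2 lower without MBV replicate 3. Npy, neuropeptide Y, was at 12.2, 11.3 and 9.49 CPM with MBV and 5.802, 5.25 and 5.64 CPM with PBS (log2 fold change 0.98 ± 0.12, FDR 0.00132).

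Retinal ganglion cells, the cells injured by the crush, had 3 genes higher and 1 lower of 23 (median log2 fold change 0.18), and 3 higher and 3 lower without MBV replicate 3. With all 6 libraries both shares were below those over all tested genes, 16.1% higher and 17.5% lower. Nefh, the heavy neurofilament of large axons (chr11:4888754-4898064), was at 35.7, 38.3 and 38.8 CPM with MBV and 18.2, 17.4 and 22.5 CPM with PBS (means 37.6 ± 1.71 and 19.4 ± 2.76 CPM, SD, n = 3 each, log2 fold change 0.95 ± 0.09, FDR 0.00100). Fluvastatin libraries held 34.3, 44.98 and 42.99 CPM of Nefh, above all MBV values in 2 of 3. Chrnb3, a nicotinic receptor subunit of ganglion cells, was at 70.4, 72.1 and 67.3 CPM with MBV against 56.4, 49.1 and 55.8 CPM with PBS (log2 fold change 0.37 ± 0.06, FDR 0.00367). Tubb3, the neuronal tubulin, was at 51.4, 55.1 and 52.3 CPM with MBV against 42.9, 35.1 and 45.2 CPM with PBS (log2 fold change 0.36 ± 0.09, FDR 0.0171). Tubb3 was not called without MBV replicate 2 (FDR 0.0506) or with GC offsets (0.0708). Both were higher in every MBV library than in any PBS library. Igf1, a growth factor that a subset of ganglion cells and microglia make, was at 50.3, 44.6 and 45.9 CPM with MBV and 66.2, 60.4 and 57.6 CPM with PBS (log2 fold change -0.398 ± 0.07, FDR 0.00439). Nefl, the light neurofilament, was at 293, 312 and 358 CPM with MBV against 346, 306 and 363 CPM with PBS and did not pass the test (FDR 0.472).

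Of 25 tested genes of the axon injury response, 8 were higher and 1 was lower (median log2 fold change 0.25), and 6 were higher and 1 lower with the GC correction. There were 11 higher and 3 lower without MBV replicate 3, and 5 were higher without PBS replicate 1. For MBV against fluvastatin, the median log2 fold change over the 25 genes was 0.04. Map3k12, which encodes DLK, the kinase that signals axon damage to the nucleus, was at 119, 117 and 125 CPM with MBV and 87.4, 92.8 and 90.6 CPM with PBS (log2 fold change 0.404 ± 0.04, FDR 0.00111). Sox4, a transcription factor raised in injured neurons (chr13:29132902-29137696), was at 38.7, 39.98 and 32.2 CPM with MBV and 24.3, 20.9 and 23.97 CPM with PBS (log2 fold change 0.67 ± 0.09, FDR 0.00225). The groups did not overlap in either gene. Atf4, the effector of the integrated stress response, was at 248, 246 and 211 CPM with MBV against 179, 177 and 186 CPM with PBS (log2 fold change 0.37 ± 0.06, FDR 0.00466). Cdkn1a, the cell cycle inhibitor p21, was at 13.02, 18.3 and 13.2 CPM with MBV against 7.81, 8.31 and 9.81 CPM with PBS (log2 fold change 0.77 ± 0.15, FDR 0.00768). No MBV value of these genes lay within the PBS range. Cartpt, a neuropeptide of some ganglion cells, was the lower one, at 45.4, 46.2 and 45.8 CPM with MBV against 54.4, 48.6 and 53.6 CPM with PBS (log2 fold change -0.198 ± 0.05, FDR 0.0223). Cartpt was not called without MBV replicate 1 or PBS replicate 1 or 3 (FDR up to 0.0991) or with the block (0.0520). Gal, the neuropeptide galanin, was at 1.61, 3.38 and 0.987 CPM with MBV against 0.908, 0.818 and 1.82 CPM with PBS and did not pass the test (FDR 0.265). Crh, which encodes corticotropin-releasing hormone, did not pass it either, at 2.08, 1.65 and 2.15 CPM with MBV against 1.13, 1.06 and 1.63 CPM with PBS (FDR 0.0735).

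Several immune genes were high in MBV replicate 3 alone. The 12 genes of MHC class II presentation summed to 45.5, 30.6 and 125 CPM in MBV replicates 1 to 3 and 36.5, 34.5 and 43.2 CPM in PBS replicates 1 to 3. Only MBV replicate 3 lay above the PBS libraries by a clear margin. Of 9 tested, H2-DMa, a chain of the class II loading factor, was the 1 higher gene, at 3.62, 3.34 and 3.99 CPM with MBV and 2.76, 2.32 and 2.58 CPM with PBS (log2 fold change 0.51 ± 0.15, FDR 0.0353, median of the 9 genes 0.61), and without that library none was called and the median was 0.01. H2-DMa was not called without MBV replicate 1, 2 or 3 or PBS replicate 1, 2 or 3 (FDR up to 0.104), with the block (0.0578), with GC offsets (0.122) or in DESeq2 (0.0704). Cd74, the invariant chain of class II, was at 7.13, 2.42 and 36.4 CPM with MBV and 4.21, 3.88 and 6.06 CPM with PBS (FDR 0.144). H2-Aa, a class II chain, was at 2.67, 0.595 and 13.3 CPM with MBV against 1.78, 1.36 and 2.197 CPM with PBS (FDR 0.182).

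Monocyte and macrophage entry genes were 3 higher and 1 lower of 14, with a median log2 fold change of 0.48 that was 0.03 without MBV replicate 3 (3 higher and 2 lower). The higher ones were Fn1, given above, Itga4, an integrin of leukocytes and neurons at 187, 195 and 156 CPM with MBV and 131, 147 and 150.5 CPM with PBS (log2 fold change 0.32 ± 0.09, FDR 0.0282), and Itgal, the leukocyte integrin LFA-1 alpha chain at 0.988, 0.961 and 1.97 CPM with MBV against 0.389, 0.273 and 0.7196 CPM with PBS (log2 fold change 1.503 ± 0.43, FDR 0.0314), and the lower one was Vcan. Itga4 was not called without MBV replicate 1 or 2 or PBS replicate 1 or 2 (FDR up to 0.105) or with the block (0.0546). Ccr2, the receptor of inflammatory monocytes, was at 2.38, 0.595 and 9.53 CPM with MBV and 0.681, 0.273 and 1.51 CPM with PBS (FDR 0.0864), highest in MBV replicate 3. Itgal was not called without MBV replicate 3 or PBS replicate 1 or 2 (FDR up to 0.110). Ly6c2, a surface marker of the same cells, was at 0.0732, 0.0457 and 2.88 CPM with MBV and 0.0648, 0 and 0.0379 CPM with PBS. Slamf7, an activation receptor of immune cells at 0.0366, 0 and 1.67 CPM with MBV and 0.0324, 0.136 and 0.0379 CPM with PBS, and Clec4n, a myeloid lectin at 0.0366, 0 and 0.7296 CPM with MBV against 0, 0.102 and 0.189 CPM with PBS, were likewise highest in MBV replicate 3 and were too low to be tested, as were Ly6c2, Cd209a, Sirpb1c, Cxcr2 and Atp8b4.

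Calls in the other immune lists stand beside shares of 16.1% higher and 17.5% lower over all tested genes. Homeostatic microglia had 1 lower gene of 17, phagocyte activation 3 higher and 2 lower of 20, alternative macrophage activation 1 higher of 7, the interleukin 4 receptor chain Il4ra (log2 fold change 0.46 ± 0.10, FDR 0.0123), complement 1 higher and 1 lower of 19, the interferon response 1 higher of 25, the antiviral gene Rsad2 (log2 fold change 0.97 ± 0.24, FDR 0.0198), chemokines 2 higher and 1 lower of 11, the IL-1 family 2 higher and 1 lower of 12, and lymphocyte genes none of 3. Rsad2 was not called without MBV replicate 2 or PBS replicate 1 or 2 (FDR up to 0.0749) or with the block (0.0543). The listed interferon genes summed to 332, 347 and 311 CPM in MBV replicates 1 to 3. In PBS replicates 1 to 3 they summed to 245, 231 and 405 CPM, with PBS replicate 3 the highest of the 6 libraries. Without MBV replicate 3, 3 higher and 6 lower of the phagocyte genes, 1 higher and 3 lower of the complement genes, 3 higher and 0 lower of the interferon genes and 4 higher and 1 lower of the chemokines were called, with 1 higher and 1 lower for alternative activation and 2 higher and 2 lower for the IL-1 family. Complement C3 was at 21.8, 11.2 and 113 CPM with MBV and 24.1, 9.44 and 24.7 CPM with PBS (FDR 0.222), again with MBV replicate 3 the highest. Cfp, the complement activator properdin, was at 9.03, 9.79 and 10.7 CPM with MBV and 5.48, 5.997 and 5.11 CPM with PBS (log2 fold change 0.82 ± 0.11, FDR 0.00186). C2 was at 1.4997, 1.19 and 1.42 CPM with MBV against 2.66, 2.28 and 2.39 CPM with PBS (log2 fold change -0.84 ± 0.18, FDR 0.0108). C2 was not called without PBS replicate 1 (FDR 0.0514). Neutrophil genes were 1 higher and 1 lower of 5 tested, and 5 of the 20 listed had no count in any PBS library. Hdc, which makes histamine, was the lower one, at 2.96, 1.69 and 4.98 CPM with MBV and 21.1, 21.9 and 17.95 CPM with PBS (log2 fold change -2.67 ± 0.28, FDR 0.00105). Mmp9, a gelatinase that neutrophils carry, was the higher one, at 13.5, 14.7 and 15.6 CPM with MBV against 9.34, 7.16 and 11.4 CPM with PBS (log2 fold change 0.64 ± 0.15, FDR 0.0155). Mmp9 was not called without PBS replicate 1 (FDR 0.0579).

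MHC class I genes were 5 higher and 1 lower of 16, and 1 higher and 2 lower with the GC correction, with 3 higher and 2 lower without MBV replicate 3. H2-D1, a classical class I chain, was at 88.4, 89.6 and 80.9 CPM with MBV and 46.4, 39.1 and 75.4 CPM with PBS (log2 fold change 0.68 ± 0.21, FDR 0.0381), and the H2 genes share reads between close copies, so that single genes are uncertain. H2-D1 was not called without MBV replicate 1 or 2 or PBS replicate 1 or 2 (FDR up to 0.131), with GC offsets (0.0688) or in DESeq2 (0.0671). Erap1, the peptide trimmer of this pathway, was at 23.2, 20.9 and 24.2 CPM with MBV against 32.97, 32.6 and 35.9 CPM with PBS (log2 fold change -0.58 ± 0.07, FDR 0.00132). Inflammatory signalling genes were 4 higher and 1 lower of 18 (median log2 fold change 0.35), and 9 higher and 3 lower without MBV replicate 3. Il6ra, a receptor chain for interleukin 6, was at 3.99, 4.99 and 2.62 CPM with MBV and 1.62, 1.33 and 1.74 CPM with PBS (log2 fold change 1.29 ± 0.26, FDR 0.00798). Nfkb2 was at 9.07, 12.2 and 7.296 CPM with MBV against 4.21, 5.04 and 6.55 CPM with PBS (log2 fold change 0.85 ± 0.22, FDR 0.0216). Nfkb2 was not called without MBV replicate 1 or 2 or PBS replicate 1 or 2 (FDR up to 0.0812).

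Endothelial genes were higher about as often as genes in general. Of 22 endothelial genes 4 were higher and none lower (median log2 fold change 0.22), a share near the 16.1% over all genes. Without MBV replicate 3 there were 4 higher and 3 lower, and with the GC correction 3 higher and 1 lower. Eng, endoglin, was at 6.91, 8.23 and 8.46 CPM with MBV and 4.67, 3.41 and 5.42 CPM with PBS (log2 fold change 0.798 ± 0.17, FDR 0.0114). Vwf, the clotting protein of endothelium, was at 20.5, 22.6 and 26.2 CPM with MBV against 10.5, 10.8 and 19.1 CPM with PBS (log2 fold change 0.78 ± 0.22, FDR 0.0304). Vwf was not called without MBV replicate 1 or 2 or PBS replicate 1 or 2 (FDR up to 0.104) or with GC offsets (0.0637). Cdh5, VE-cadherin, was at 6.29, 6.22 and 9.53 CPM with MBV against 4.603, 4.09 and 4.77 CPM with PBS (log2 fold change 0.701 ± 0.18, FDR 0.0224). Cdh5 was not called without PBS replicate 1 or 2 (FDR up to 0.0754). Erythroid genes, the sign of red blood cells in a sample, were 3 higher and none lower of 8, and 4 higher and 0 lower without MBV replicate 3. Hba-a2, an alpha globin with a near-identical copy, was at 3.88, 4.71 and 4.46 CPM with MBV, 1.88, 1.29 and 1.48 CPM with PBS and 4.38, 5.16 and 3.44 CPM with fluvastatin (log2 fold change 1.47 ± 0.19, FDR 0.00160). Pericyte and smooth muscle genes were 2 higher and 1 lower of 14, and 2 higher and 2 lower without MBV replicate 3. Vtn, vitronectin, was at 366, 316 and 465 CPM with MBV and 518, 517 and 491 CPM with PBS (log2 fold change -0.42 ± 0.12, FDR 0.0313). Vtn was not called without MBV replicate 1 or 2 or PBS replicate 1, 2 or 3 (FDR up to 0.102). Extraocular muscle genes were 1 higher of 8, the muscle giant Ttn at 52.6, 51.7 and 47.6 CPM with MBV against 37.02, 40.2 and 34.4 CPM with PBS (log2 fold change 0.43 ± 0.07, FDR 0.00359), and astrocyte genes 1 lower of 13, the Aqp4 given above. Without MBV replicate 3 there were 2 higher and 0 lower of the muscle genes and 0 higher and 4 lower of the astrocyte genes.

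Nuclear genes of oxidative phosphorylation were called in the lower direction only, with small changes. Of 28 nuclear genes of oxidative phosphorylation, 18 were lower and none was higher (median log2 fold change -0.30), 25 were lower without MBV replicate 3, 14 without MBV replicate 1 and 17 with the GC correction. Cox7a2, a subunit of cytochrome oxidase, was at 38.8, 39.6 and 41.1 CPM with MBV and 54.8, 52.4 and 57.3 CPM with PBS (log2 fold change -0.47 ± 0.05, FDR 0.00105). Ndufs1, a subunit of complex I, was at 79.01, 77.7 and 82.97 CPM with MBV against 101, 101 and 101 CPM with PBS (log2 fold change -0.34 ± 0.04, FDR 0.00123). The fluvastatin means lay between those of the other groups, with libraries at 40.7, 44.8 and 46.003 CPM and 86.9, 88.5 and 86.1 CPM. Of the 13 genes of the mitochondrial genome, 2 were higher and 2 lower, with 2 higher and 8 lower without MBV replicate 3 and 3 higher and none lower with the GC correction. mt-Co3, a catalytic-core subunit of cytochrome oxidase, was at 3289.7, 3250.2 and 3888 CPM with MBV and 4817, 4597 and 4913 CPM with PBS (log2 fold change -0.47 ± 0.08, FDR 0.00510). mt-Co3 was not called with GC offsets (FDR 0.0663).

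Cytosolic ribosomal protein genes were 6 higher and 11 lower of 36 (median log2 fold change -0.06), and 4 higher and 14 lower without MBV replicate 3. Rpl27 was at 40.6, 38.8 and 40.9 CPM with MBV and 55.9, 52.6 and 61.3 CPM with PBS (log2 fold change -0.503 ± 0.06, FDR 0.00142). Rps6 was at 189.7, 197 and 199.6 CPM with MBV against 163, 157 and 160.1 CPM with PBS (log2 fold change 0.28 ± 0.04, FDR 0.00181). Replication-dependent histones were 2 higher and 7 lower of 27, and cell cycle genes 1 higher and 2 lower of 16. The histones were 2 higher and 8 lower without MBV replicate 3. Heat shock and immediate early genes were 4 higher and none lower of 20 (median log2 fold change 0.24), and 9 higher and 1 lower without MBV replicate 3. Hspa8, the constitutive HSP70 chaperone, was at 1005, 1025 and 992 CPM with MBV and 844, 787 and 803 CPM with PBS (log2 fold change 0.303 ± 0.05, FDR 0.00273). Genes for taking up vesicles and for endolysosomes were 2 higher and 6 lower of 26, and 3 higher and 7 lower without MBV replicate 3. Cav2, a protein of caveolae, was at 24.3, 24.9 and 29.01 CPM with MBV and 39.6, 38.3 and 41.8 CPM with PBS (log2 fold change -0.62 ± 0.07, FDR 0.00132). Rab27b, a GTPase of vesicle secretion, is outside this list and was followed because the study names it. It was at 22.5, 20.9 and 27.04 CPM with MBV against 35.3, 30.9 and 36.2 CPM with PBS (log2 fold change -0.55 ± 0.10, FDR 0.00585). Dnm2, the dynamin that pinches off endocytic vesicles, was at 73.1, 77.1 and 70.9 CPM with MBV against 59.3, 60.5 and 58.7 CPM with PBS (log2 fold change 0.299 ± 0.05, FDR 0.00309). Dnm2 was not called with GC offsets (FDR 0.0752).

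Genes of cholesterol synthesis and uptake were 2 lower and none higher of 20 compared to PBS, and 5 were lower with the GC correction. Insig1, the sterol sensor that holds back this pathway (chr5:28276361-28283660), was at 64.1, 67.4 and 58.5 CPM with MBV and 82.98, 77.4 and 89.5 CPM with PBS (log2 fold change -0.405 ± 0.07, FDR 0.00436). Compared to fluvastatin, which held 108, 113 and 117 CPM, its log2 fold change was -0.83 ± 0.06, FDR 0.00979, and 4 of the 5 genes that differed between these treatments were of this list and lower with MBV. Between these treatments, 0 genes were called with the replicate number as a block, without MBV replicate 1 or without fluvastatin replicate 3. In DESeq2, 127 were called.

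Outside the lists, the genes with the smallest FDR among changes of at least 2-fold were mostly of modest level. Ttll11, an enzyme that adds glutamates to tubulin (chr2:35641253-35869925), was at 12.2, 11.7 and 13.9 CPM with MBV and 30.5, 29.3 and 29.4 CPM with PBS (log2 fold change -1.25 ± 0.07, FDR 0.000755). Glb1l3, a galactosidase relative (chr9:26729249-26772186), was at 2.01, 1.46 and 2.92 CPM with MBV against 15.1, 15.7 and 11.6 CPM with PBS (log2 fold change -2.74 ± 0.22, FDR 0.000849). Ccdc187, a coiled-coil protein (chr2:26133481-26184569), was at 15.5, 12.1 and 16.8 CPM with MBV and 4.28, 4.46 and 3.598 CPM with PBS (log2 fold change 1.83 ± 0.15, FDR 0.000849). Kif19a, a kinesin that trims cilia, was at 9.29, 9.29 and 8.28 CPM with MBV against 2.92, 3.58 and 2.99 CPM with PBS (log2 fold change 1.49 ± 0.13, FDR 0.000865). All 4 were free of overlap between the groups. For Ccdc187, fluvastatin replicates 1 to 3 were at 6.03, 5.38 and 7.09 CPM, nearer to PBS than to MBV, and for Kif19a at 6.03, 5.496 and 6.29 CPM, between them.

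Other genes chosen in the same way had overlapping levels in the MBV and fluvastatin libraries. Id3, an inhibitor of helix-loop-helix factors, was at 5.12, 4.67 and 4.64 CPM with MBV, 13.3, 10.6 and 14.8 CPM with PBS and 6.81, 3.22 and 4.97 CPM with fluvastatin (log2 fold change -1.43 ± 0.14, FDR 0.000957 for MBV against PBS). Tmem26, a membrane protein, was at 6.69, 5.49 and 6.27 CPM with MBV, 2.11, 1.94 and 2.42 CPM with PBS and 5.49, 5.42 and 6.37 CPM with fluvastatin (log2 fold change 1.505 ± 0.15, FDR 0.000957). Olfr769, an olfactory receptor gene, was at 2.85, 2.196 and 3.05 CPM with MBV, 0.1297, 0.204 and 0.189 CPM with PBS and 2.19, 2.09 and 2.72 CPM with fluvastatin (log2 fold change 3.92 ± 0.28, FDR 0.000755). In these 3 genes the PBS libraries lay apart from the libraries of both other groups. Gm49388 had 0 counts in each PBS library and 5.82, 1.83 and 4.38 CPM with MBV, at least 35.2-fold higher when PBS is set to 3 counts in a library, and 4.91, 5.12 and 7.14 CPM with fluvastatin. It overlaps Setd1a and Hsd3b7, so its reads are uncertain. Lars2, the mitochondrial leucyl-tRNA synthetase whose locus also collects rRNA-like reads, was at 1661, 1308 and 1605 CPM with MBV, 212, 234 and 366 CPM with PBS and 770.2, 1328 and 5345 CPM with fluvastatin (log2 fold change 2.49 ± 0.20, FDR 0.000849).

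The share of genes called rose or fell with the GC content of the transcript, taken from the longest transcript of each gene in GENCODE for 99.8% of the tested genes. In the quartile of lowest GC content, 4.23% of genes were higher and 35.2% lower with MBV (median log2 fold change -0.14). In the quartile of highest GC content, 29.2% were higher and 5.76% lower (median 0.15). The quartiles between were at 10.6% higher and 19.3% lower and at 20.2% higher and 9.94% lower. The median GC content was 53.5% for higher genes, 44.8% for lower genes and 49.5% for all tested genes. Between MBV and fluvastatin, the quartile medians ran only from -0.0064 to 0.0196. With the series taken as described above, which no label states, series and treatment cannot be separated as carriers of this gradient.

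With offsets that removed the trend of each library with GC content, 3708 genes passed the test, 1501 higher and 2207 lower, and the quartile medians ran from -0.0246 to -0.0126. The lists that led the comparison then had 13 of 13 crystallins higher, 7 of 15 pigment genes, 8 of 14 ciliary genes, 10 of 19 Müller glia genes and 17 of 28 oxidative phosphorylation genes lower. Among the members tested, 12 crystallins passed the count filter only through the MBV libraries. Another 7 ciliary and 2 pigment genes passed it only through the PBS libraries. The counts of the crystallin, ciliary and pigment lists are therefore descriptions and do not test these lists. Col4a3 had a log2 fold change of -2.32, FDR 0.00130, Col4a1 of 0.797, FDR 0.00580 and Nefh of 0.76, FDR 0.00202 in that fit. Transcript length had a weaker relation, with 10.6% of genes higher in the shortest and 22.9% in the longest quartile, and 15.3% to 19.0% lower across quartiles.

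**Figure D4:**
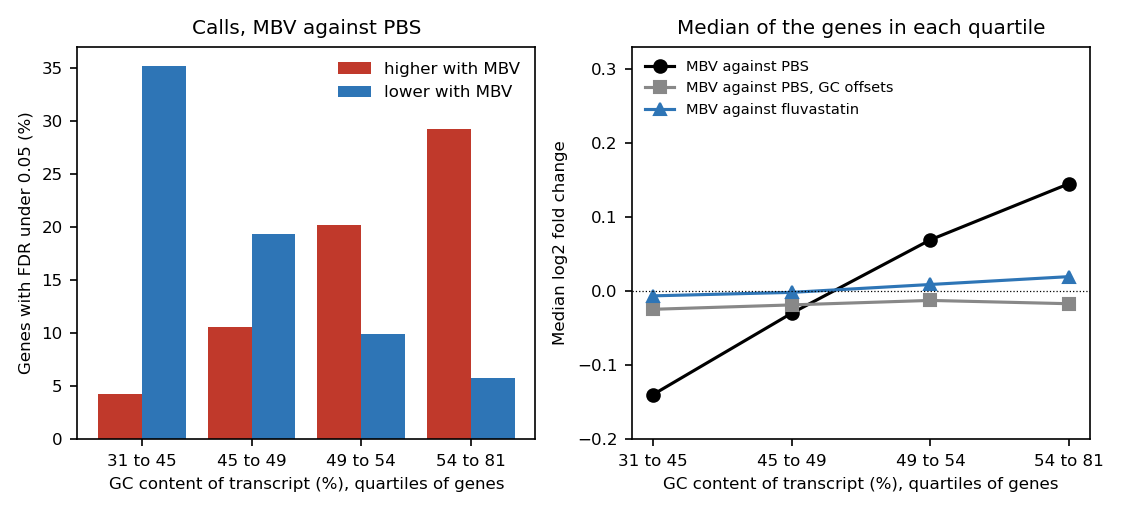
Left, percent of genes with FDR under 0.05 that were higher (red) or lower (blue) with MBV than with PBS in quartiles of transcript GC content. Right, median log2 fold change in each quartile for MBV against PBS, the same with GC offsets and MBV against fluvastatin, of which MBV against PBS alone runs from -0.14 to 0.15.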

How the data were processed

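Per the study's methods, RNA was extracted from whole retinas with TRIzol, TruSeq Total RNA libraries were sequenced as paired reads, and the authors mapped and counted reads in CLC Genomics Workbench against GRCm39. The deposited total counts per gene, not normalized, were used. Columns with the authors' own fold changes, p-values and FDR, and 6 count columns that name no sample, were not used. Strand setting and annotation are not given in the sources used here. Genes with at least 10 counts in 3 of 6 libraries were tested by edgeR 4.0.16 (TMM scaling, quasi-likelihood test, no covariate, R 4.3.3), with Benjamini-Hochberg adjustment over all tested genes. CPM values use TMM-scaled library sizes. Genes and gene lists were chosen with earlier results of these data known. Named genes were the 12 per direction with the smallest FDR at 2-fold or more, the 5 per direction with the largest fold among called genes that did not overlap and had a mean count of at least 50, up to 6 called members and the 3 highest of each list, and genes the study names. Some genes are not reported here. Simulated data with 200 changed genes of 15162 gave recovery of 73.1% to 80.6% at 1.5-fold and 95.5% to 97.0% at 2-fold, with at most 21 false calls. The simulated libraries held no difference between series, no GC trend and no outlying replicate. Their false calls therefore do not describe those among the real libraries. Alternatives were DESeq2 1.42.0, other scaling and filters, a replicate block, 1 fit of 9 libraries, division by genomic inflation, each library left out and GC offsets (transcripts of GENCODE M39), the last chosen after seeing the data.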

Additional observations from a re-analysis of the deposited data

How the results depend on the processing

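Of 5095 called genes for MBV against PBS, the count was between 2727 (without PBS replicate 1) and 5600 (without MBV replicate 3) when 1 library was left out, and 316 changes of at least 2-fold became 179 without PBS replicate 1 and 503 without MBV replicate 3. DESeq2 called 4638, scaling by RLE size factors 5070 and 1 fit of 9 libraries 5168. Dividing the statistics by genomic inflation left 0 called genes and 0 large changes (2 genes at an unadjusted p under 0.05). The replicate block called 4013, and GC offsets with the block called 2616. Same-numbered MBV and PBS libraries hardly deviated together (correlations over genes of 0.0268, 0.0032 and 0.0869), and not every sample correlated best with its own number, so the numbers were not taken to pair samples. GC offsets without MBV replicate 3 called 4861 genes, of which 35.4% were higher, compared to 47.8% with all libraries and no offsets. For MBV against fluvastatin, 5 calls became 127 in DESeq2, 1 with RLE size factors, 11 without a count filter, 0 with the replicate block, 0 with GC offsets and the block, and 0 to 23 when 1 library was left out. Of the 109 called genes with values in the text, 10 lost their call with the replicate block, 12 with GC offsets, 17 with both, 5 in DESeq2, 6 in the fit of 9 libraries, 8 with GC offsets and without MBV replicate 3, and 2 (without MBV replicate 3) to 28 (without PBS replicate 1) when 1 library was left out, while none lost it with RLE size factors or another count filter and none changed direction. Among genes with values in the text, the direction turned in 3 that had not passed the test. C3 ran from -0.22 without that library to 1.78 without MBV replicate 2 and H2-Aa from -0.0788 to 2.14 (log2 fold change), and with GC offsets and without MBV replicate 3, C3 was at -0.34, Cd74 at -0.11 and H2-Aa at -0.0742. The cause of these shifts was not tested. At 21349516 to 30992040 counts per library, genes under the filter, among them Ly6c2, Slamf7 and Clec4n, could not be tested.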
